A study of Arabidopsis thaliana with 4 samples.

Results

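Root tips of the Arabidopsis thaliana mutant med16-2 were compared with root tips of Col-0, the wild-type accession, both grown with ample phosphate. The comparison rests on 2 of the 4 libraries of the study, 1 of Col-0 and 1 of med16-2, both chosen by their labels for genotype and treatment, and on the 33602 TAIR10 loci counted in each. Both genotypes carry the ecotype label Col 0 (CS70000), were kept for 4 days after germination on agar with a dilute MS medium, 0.5% sucrose, pH 5.7 and 1 mM phosphate (high phosphate), and were sampled as root tips. The other 2 libraries are Col-0 and med16-2 on the same medium with 5 µM phosphate (low phosphate), and they are given here beside the members as a second pair of the same genotypes. The labels name a single mutant line, med16-2, with no second allele or complemented line, and do not say how many seedlings were pooled or how long the cut tips were. The design has 1 biological replicate per group, so no ratio below has a replicate check, no p-value was computed, and every interval covers counting error only.

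Mediator is a large protein complex that bridges DNA-bound transcription factors and RNA polymerase II. MED16 is a subunit of its tail module, the part that transcription factors contact, and its gene was first known in Arabidopsis as SENSITIVE TO FREEZING 6 (SFR6), because mutants fail to express cold-regulated genes and do not acclimate to frost. In that pathway CBF transcription factors bind the C-repeat element in the promoters of cold-regulated (COR) genes, and MED16 is needed for these genes to be transcribed. MED16 is also known for roles in defence gene expression, in iron deficiency responses and in root growth under phosphate shortage.

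The promoters of 5 genes with large ratios are shown, because each gene stands for a group described below and because 4 of them hold the binding motif for which that group is known. The choice was made with their values known. Each is the 250 bases before the annotated gene start, read 5′ to 3′ in the direction of the gene from the TAIR10.1 genome, and capitals mark the motif searched on both strands. The motif is CCGAC, the core of the C-repeat, for the cold-regulated genes RD29A, XERO2 and KIN2, CACGTG, the G-box, for the chalcone synthase gene CHS, and GNATATNC, the PHR1 binding site, for the phosphate starvation RNA gene AT4.
RD29A, chr5:21240467-21240716, plus strand: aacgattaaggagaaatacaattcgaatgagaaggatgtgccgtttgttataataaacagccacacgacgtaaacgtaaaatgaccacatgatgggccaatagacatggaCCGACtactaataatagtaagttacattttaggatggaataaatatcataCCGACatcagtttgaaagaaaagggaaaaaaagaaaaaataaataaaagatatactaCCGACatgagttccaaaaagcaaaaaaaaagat
XERO2, chr3:18940393-18940642, plus strand: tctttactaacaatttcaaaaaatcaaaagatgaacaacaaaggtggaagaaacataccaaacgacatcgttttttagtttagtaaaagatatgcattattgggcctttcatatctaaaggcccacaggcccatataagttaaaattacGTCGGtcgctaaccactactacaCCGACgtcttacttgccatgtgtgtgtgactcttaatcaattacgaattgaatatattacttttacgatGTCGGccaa
KIN2, chr5:5211469-5211718, plus strand: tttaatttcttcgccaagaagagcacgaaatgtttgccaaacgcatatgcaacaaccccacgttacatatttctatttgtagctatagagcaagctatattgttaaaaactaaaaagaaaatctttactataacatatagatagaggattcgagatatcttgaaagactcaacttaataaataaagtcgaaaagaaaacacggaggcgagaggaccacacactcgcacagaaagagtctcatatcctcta
CHS, chr5:4488226-4488475, plus strand: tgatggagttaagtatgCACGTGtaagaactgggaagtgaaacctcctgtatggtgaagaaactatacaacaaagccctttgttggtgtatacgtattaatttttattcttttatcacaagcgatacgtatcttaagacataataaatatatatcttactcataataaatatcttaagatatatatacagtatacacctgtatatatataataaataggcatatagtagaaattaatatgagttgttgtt
AT4, chr5:894332-894581, plus strand: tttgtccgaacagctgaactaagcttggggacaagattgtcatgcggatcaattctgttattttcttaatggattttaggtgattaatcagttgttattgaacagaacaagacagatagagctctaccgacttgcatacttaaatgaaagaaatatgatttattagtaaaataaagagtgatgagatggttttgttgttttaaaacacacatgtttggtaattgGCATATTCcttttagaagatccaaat
The RD29A promoter holds 3 CCGAC motifs, which begin at -140, -90 and -33 relative to the gene start, and that of XERO2 holds 3, at -101, -78 and -9, where GTCGG is the motif on the other strand. The KIN2 window holds 0, so a large ratio was also seen for a cold-regulated gene without these letters in this window. The CHS window has 1 G-box at -233 and the AT4 window 1 PHR1 binding site at -26.

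Motif counts were set beside those of all 27443 protein-coding promoters of the same length, with motifs counted separately so that matches could overlap. CCGAC lay in 11.97% of all promoters, in 12.9% of the promoters of the loci compared, in 13.2% of those called lower in med16-2 (149 of 1130), in 14.8% of those called lower at least 4-fold (39 of 263) and in 10.8% of those called higher (14 of 130). Of the cold list described below, 7 of 22 promoters held it (31.8%), and of the root hair list 8 of 26 (30.8%). The G-box lay in 6.49% of all promoters, 7.22% of those of the loci compared, 8.14% of those called lower and 9.23% of those called higher. Of the lists, 5 of 13 flavonol genes, 4 of 22 cold genes and 6 of 34 photosynthesis genes held it. The G-box counts of the cell cycle, phosphate starvation and root hair lists were 3 of 40, 2 of 40 and 0 of 26. The PHR1 binding site lay in 5.46% of all promoters, 5.43% of those of the loci compared, 6.73% of those called lower and 12 of 40 phosphate starvation genes. AAACCCTAA is the telo box found upstream of many ribosomal and replication genes. It lay in 2.61% of all promoters, 2.12% of those of the loci compared and 0.973% of those called lower (11 of 1130). A match is a description of the sequence and not evidence that a factor binds there.

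The 2 high phosphate libraries had 10079345 counts over genes in Col-0 and 14266585 in med16-2, the low phosphate libraries 15696333 and 12302510. Counts below are raw, and since the med16-2 library was the deeper of the high phosphate pair, equal counts mean a lower level in med16-2; ratios and CPM (counts scaled to library size) take the depths into account. At these depths a count of 0 allows up to 0.305 CPM in Col-0 and 0.208 CPM in med16-2 at high phosphate, taking 3 counts as the limit. Lines that name no gene took 12.5% and 10.14% of all counts listed in the high phosphate pair, against 9.89% and 42.1% in the low phosphate pair, so that med16-2 at low phosphate stood apart from the other libraries in its make-up. The 100 loci with the most counts took 12.8% of gene counts in both high phosphate libraries. Mitochondrial loci took 0.501% of gene counts in Col-0 and 0.231% in med16-2, and plastid loci 0.0081% and 0.0034%. The libraries keep no strand, so reads from the overlap of genes cannot be told apart. Reads listed as ambiguous between genes were left out, 1.84% of all counts listed in Col-0 and 1.76% in med16-2 at high phosphate. Of the genes named with a call, those that overlap another locus are UGT84A1, LHB1B2, CAB1, LHCA4, GUN4, PORB, CRD1, CHS, KAT5, CASP5, KCS2, LPR1, FER1, FER2, FER4, GSTF12, GSTU17, NRT1.5, AMT1;1, WRKY53, IAA3, IAA5, AT4G26010, AT3G23570, AT3G15450 and ASN1.

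Most differences at high phosphate were towards lower counts in the mutant. Loci were compared when their mean over the 4 libraries reached 1 CPM. Of these 18692 loci, 1186 were called lower in med16-2 (6.34%) and 133 called higher (0.712%), where a call needs a 2-fold or larger ratio and an exact 95% counting interval that leaves out equality. At least 4-fold, 278 were lower (1.49%) and 14 higher (0.0749%). The loci called lower summed to 52027 CPM in Col-0 and to 19532 CPM in med16-2, while those called higher summed to 949 and 2189 CPM. In bulk tissue, fewer cells of a type and less RNA per cell cannot be told apart, here and in every list below. Around these calls most loci were close to equal. The median log2 ratio of all loci compared was 0.02, the 25th and 75th percentiles were -0.28 and 0.21, and 82.2% of loci lay within 1.5-fold. The 5th and 95th percentiles, -1.17 and 0.53, were uneven about 0. Organelle and ribosomal RNA loci made up 35 of the 1186 lower calls and 0 of the higher ones. Among the loci compared, 72 had no gene type in the annotation, mitochondrial and plastid loci among them. Of these 72, 35 were called lower (48.6%) and 0 higher, beside 6.34% lower over all loci, and their median log2 ratio was -1.16. Of the 4 loci annotated as ribosomal RNA, 0 were called. The mitochondrial share also differed in this pair, and its part in the calls was not tested. The other 14910 loci were not compared. Of all 33602 loci, 10584 had 0 counts in both high phosphate libraries.

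**Figure D1:**
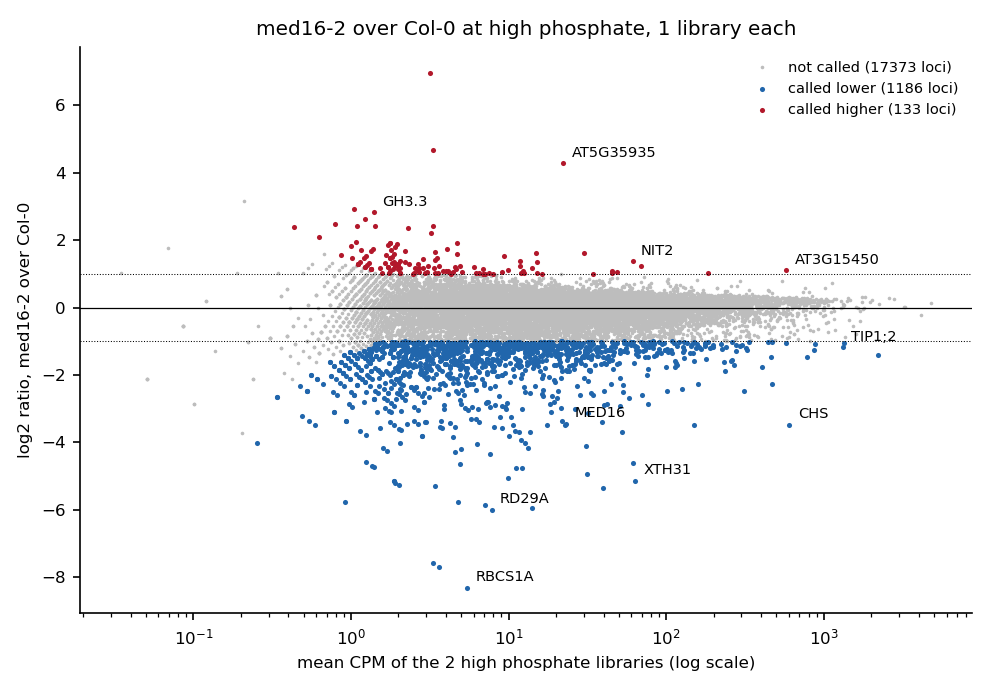
Each point is 1 of the 18692 loci compared, with the mean CPM of the 2 high phosphate libraries on the x axis (log scale) and the log2 ratio of med16-2 over Col-0 on the y axis, computed on counts plus 0.5; dotted lines mark 2-fold. The 1186 loci called lower (blue) reach log2 ratios below -5, while the 133 called higher (red) lie mostly between 1 and 2.

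The share of loci called depended on level. Among 3407 loci with a mean of 1 to under 5 CPM over the 4 libraries, 14.0% were lower and 2.94% higher. Among 5820 loci from 5 to under 20 CPM these shares were 6.99% and 0.412%, among 7305 loci from 20 to under 100 CPM 3.15% and 0.0958%, and among 2160 loci at 100 CPM and over 3.38% and 0.0926%. Lower calls were thus present at every level, while 100 of the 133 higher calls came from the class with the fewest counts. By chromosome, between 5.14% (chromosome 3) and 7.33% (chromosome 2) of loci were called lower.

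**Figure D2:**
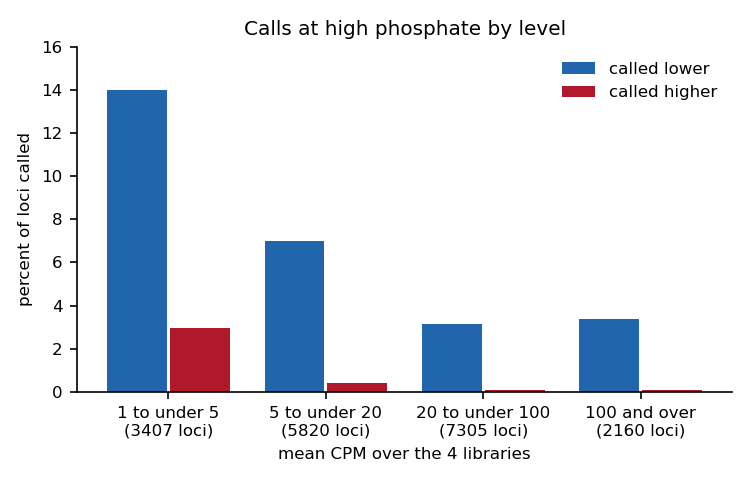
Bars give the percent of loci called lower (blue) and higher (red) in med16-2 at high phosphate, by mean CPM over the 4 libraries. The share called lower is 14.0% in the lowest class and 3.38% in the highest, and the share called higher falls from 2.94% to 0.0926%.

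MED16 (AT4G04920), the gene that med16-2 disrupts, was looked at first to test the labels. At high phosphate there were 420 counts in Col-0 against 56 in med16-2, 10.9-fold (8.28 to 14.8) lower, and at low phosphate 747 and 48 counts. Counts were therefore low but not 0 in both med16-2 libraries, in the direction of the labels. Among the 3 loci on either side on chromosome 4, RIC10, which encodes a protein that binds ROP GTPases, was called lower with 93 counts in Col-0 against 53 in med16-2, 2.55-fold (1.81 to 3.66). The adjoining NSF gene, for a vesicle fusion ATPase, had 1968 counts in Col-0 against 3052 in med16-2 and a log2 ratio of 0.09 (0.00 to 0.17), and AT4G04925 and AT4G04940 were not called, while PDF2 with 2 and 0 counts and DES-1-LIKE with 7 and 17 were not compared. The remaining Mediator genes were not called, beside 6.34% of all loci lower and 0.712% higher. MED16 was the 1 of 25 subunit genes called lower, 0 were called higher, and the list's median log2 ratio was 0.17 beside 0.02 over all loci. MED12 and MED13, which encode parts of the kinase module, were at 0.08 (-0.06 to 0.22) and 0.20 (0.05 to 0.36), and MED4, a middle module gene, had the highest log2 ratio of the list at 0.57 (0.28 to 0.87).

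**Figure D3:**
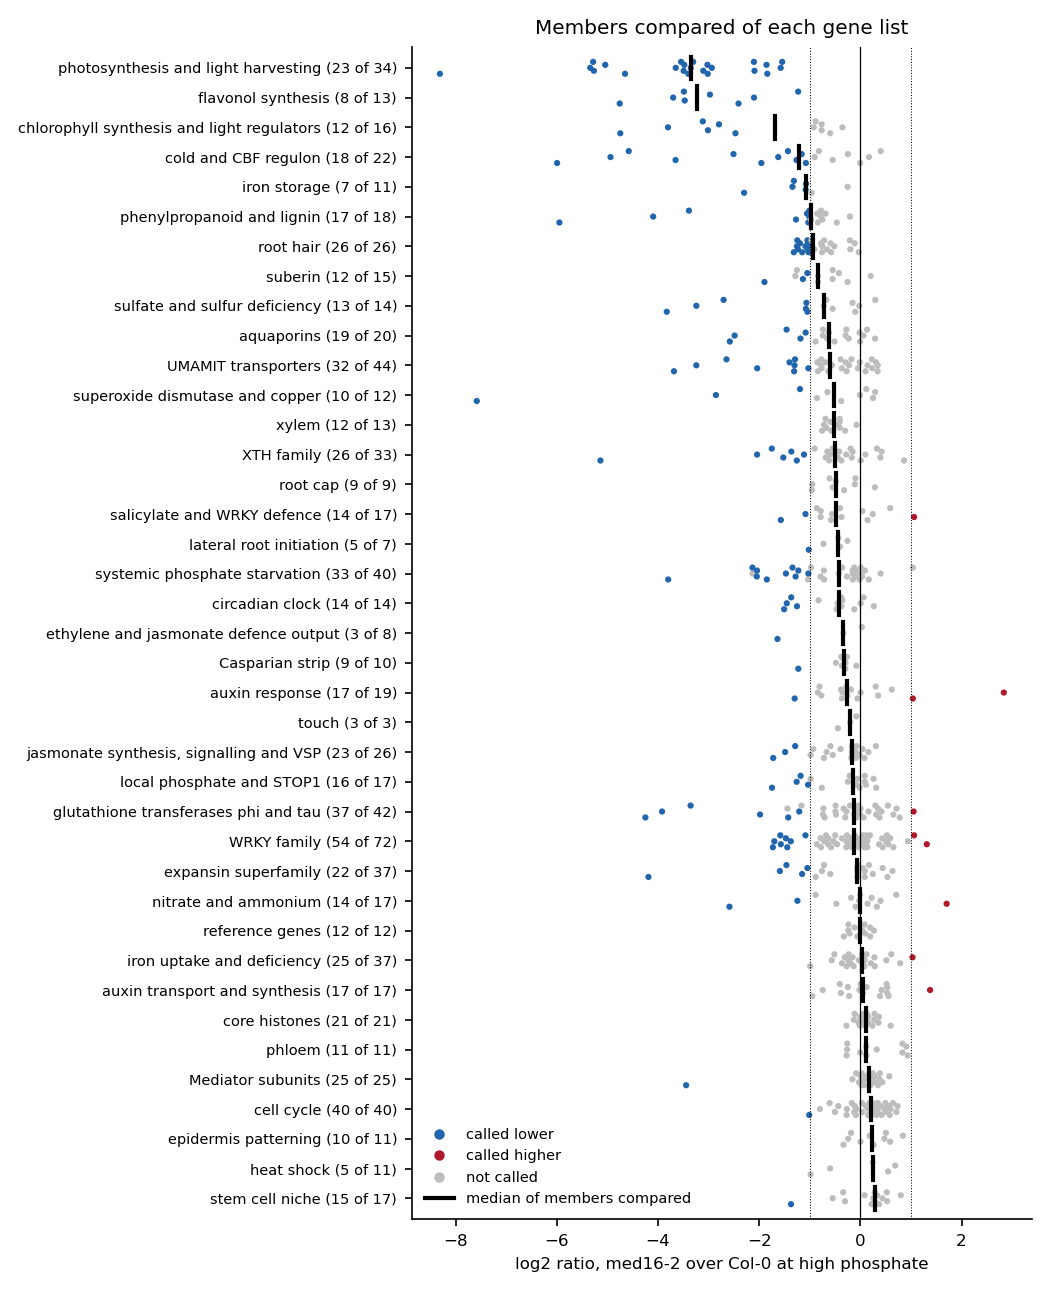
Each point is a compared member of a gene list, placed by its log2 ratio of med16-2 over Col-0 at high phosphate, with black bars for list medians (0.5 was added to each count, so that a library at 0 has a ratio) and, after each name, the members compared of those listed. Photosynthesis (median -3.35), flavonol synthesis (-3.22) and cold genes (-1.21) lie to the left, while the reference gene, core histone, Mediator and cell cycle lists lie around 0.

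Cold-regulated genes were lower in med16-2 without a cold treatment. Of 22 genes listed 18 were compared, and 11 were called lower and 0 higher (median log2 ratio -1.21), with 16 of 18 below 0, beside 6.34% lower and a median of 0.02 over all loci. RD29A, a hydrophilic protein gene whose promoter is shown above with 3 C-repeat cores, had 152 counts in Col-0 against 3 in med16-2, 63.7-fold (24.9 to 363) lower. XERO2, a dehydrin gene that also has 3 cores, had 892 counts in Col-0 against 229 in med16-2, 5.68-fold (4.92 to 6.61) lower. KIN2, with 0 cores in the window, had 597 counts in Col-0 against 28 in med16-2, 30.6-fold (21.3 to 47.3) lower, and its close copy KIN1 had 24 counts in Col-0 against 1 in med16-2; reads shared by near-identical copies may be counted for neither. All 3 of RD29A, XERO2 and KIN2 were called lower at low phosphate as well, with 306 and 3 counts in Col-0 and med16-2 for RD29A, 1095 and 88 counts for XERO2 and 792 and 17 counts for KIN2.

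The CBF genes upstream had few counts. CBF1, which encodes a C-repeat binding factor, had 21 counts in Col-0 against 2 in med16-2, 12.6-fold (3.75 to 135) lower, its relative CBF2 had 89 counts in Col-0 against 48 in med16-2, 2.70-fold (1.89 to 3.93) lower, and CBF3, too low for the comparison, had 21 and 1 counts. At low phosphate CBF1 had 18 and 11 counts and was not called. COR413-PM1, for a cold-regulated membrane protein, was 3.08-fold (2.90 to 3.27) lower at 352 CPM in Col-0 against 114 in med16-2, and COR47, a dehydrin gene, was 2.11-fold (2.05 to 2.17) lower at 1185 CPM in Col-0 against 562 in med16-2. GOLS3, for a galactinol synthase, ZAT10, for a zinc finger repressor, and COR413IM1 made up the rest of the genes called with KIN1 and CBF1. COR15A, COR15B and RD29B had 0 counts in both high phosphate libraries, so their ratio could not be seen at this depth. At low phosphate 5 of the 18 were called lower and the median was -0.77.

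Nuclear genes of photosynthesis were lower as a group. These are transcripts of leaf tissue for the most part, and the list was set as a marker of green tissue outside the root tip. Of 34 listed genes 23 were compared and all of these 23 were called lower, beside 6.34% of all loci. The list's median log2 ratio was -3.35, with no member compared above -1.54. The summed level of the list was 421 CPM in Col-0 and 48.3 CPM in med16-2 at high phosphate, and 377 and 59.9 CPM at low phosphate, where all 23 were called lower again, with a median of -2.62. RBCS1A, for the small subunit of Rubisco, had 108 counts in Col-0 while med16-2 had 0, so that it was lower by at least 52.6-fold against 3 counts, and RBCS1B, RBCS2B, CAB2, LHB1B1 and LHCB2.2 had 0 counts in both. Whether the 2 cut samples held different amounts of greening tissue was not tested.

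Genes of the light-harvesting antenna held several of the largest ratios. LHB1B2, for a chlorophyll-binding protein of photosystem II, had 761 counts in Col-0 against 27 in med16-2, 40.5-fold (28.1 to 62.9) lower, and its relative CAB1 had 191 counts in Col-0 against 8 in med16-2, 32.9-fold (17.35 to 82.0) lower; copies of this family can share reads. PSBW and LHCA2, for proteins of photosystem II and of the photosystem I antenna, had 66 counts in Col-0 against 2 in med16-2 and 39 against 1. LHCA4, of the same antenna, differed least among those named at 3.58-fold (2.95 to 4.37) lower with 358 counts in Col-0 against 146 in med16-2. Of the 11 genes not compared, LHCB2.1 had 9 and 1 counts, PRK 16 and 0 and SBPASE 14 and 3, while CAB3 had 1 and 7.

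Chlorophyll synthesis genes and light regulators went the same way in part, beside 6.34% of all loci called lower. Of 16 listed genes 12 were compared, 6 were called lower and 0 higher, and all 12 had log2 ratios below 0 with a median of -1.69. GUN4, a regulator of magnesium chelatase, had 27 counts in Col-0 against 1 in med16-2, and PORB, for protochlorophyllide oxidoreductase, had 52 counts in Col-0 against 5 in med16-2, 13.9-fold (6.11 to 48.8) lower. ELIP1, for an early light-induced protein, had 565 counts in Col-0 against 95 in med16-2, 8.65-fold (6.98 to 10.9) lower, and CRD1, for a cyclase of chlorophyll synthesis, was 8.07-fold (5.75 to 11.8) lower. HY5, the transcription factor gene of light responses, and HEMA1, for the first committed enzyme of tetrapyrrole synthesis, had log2 ratios of -0.88 (-1.05 to -0.72) and -0.60 (-0.74 to -0.45) and were not called. At low phosphate 7 of the 12 were called lower, with a median of -1.25.

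**Figure D4:**
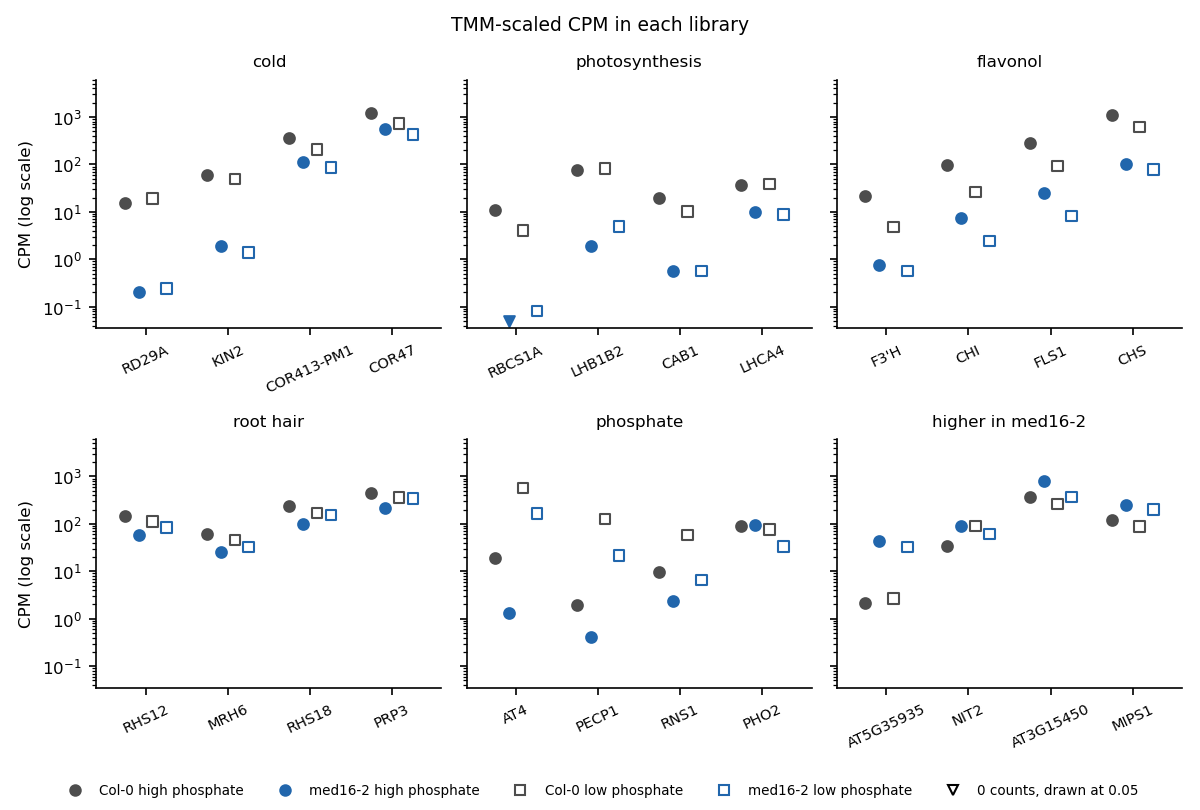
TMM-scaled CPM (log scale) of 4 genes in each of 6 groups, with filled circles for the high phosphate pair, open squares for the low phosphate pair, grey for Col-0 and blue for med16-2; the triangle is a library with 0 counts, placed at the foot of the axis. Cold, photosynthesis and flavonol genes lie lower in med16-2 in both pairs, whereas the root hair genes are separated at high phosphate and closer together at low phosphate.

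Flavonol synthesis genes, which turn phenylpropanoids into flavonol glycosides, were lower at every step compared. Of 13 listed genes 8 were compared and these 8 were called lower, beside 6.34% of all loci. The median log2 ratio of the list was -3.22. MYB12, the transcription factor gene of the flavonol branch, had 378 counts in Col-0 against 70 in med16-2, 7.85-fold (6.10 to 10.3) lower. CHS, for chalcone synthase, the entry enzyme, had 1107 CPM in Col-0 against 99.9 in med16-2, 11.1-fold (10.5 to 11.7) lower, and the genes for the next steps, CHI (chalcone isomerase), F3'H (flavonoid 3'-hydroxylase) and FLS1 (flavonol synthase), had 97.9 CPM in Col-0 against 7.50 in med16-2, 21.5 against 0.764 and 276 against 24.6. Their folds were 13.0-fold (10.7 to 16.1), 27.0-fold (15.4 to 57.3) and 11.2-fold (10.05 to 12.6) lower. The glucosyltransferase gene UGT78D2 was 4.29-fold (3.74 to 4.94) lower and CHIL, for a chalcone isomerase-like protein, 5.31-fold (4.84 to 5.83) lower. At low phosphate 7 of the 8 were lower, with a median of -2.61; CHS had 615 and 77.7 CPM and FLS1 93.2 and 8.15 CPM. Of the 5 not compared, MYB11, DFR and LDOX had 0 counts in both high phosphate libraries, MYB111 had 1 and 2, and F3H had 2 and 0, at a locus that overlaps an annotated antisense RNA.

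Phenylpropanoid genes upstream were also lower, less steeply, beside 6.34% of all loci called lower. Of 17 compared of 18 listed, 8 were called lower and 0 higher, all 17 lay below 0 on the log2 scale and the median was -0.97. PAL1, for the phenylalanine ammonia-lyase that opens the pathway, had 1227 CPM in Col-0 against 508 in med16-2, 2.41-fold (2.35 to 2.49) lower, and 4CL3, for the CoA ligase that feeds flavonoids, had 71.6 CPM in Col-0 against 6.81 in med16-2, 10.5-fold (8.50 to 13.1) lower. UGT84A1 and UGT84A2, which encode glucosyltransferases of hydroxycinnamic and sinapic acid, had 274 counts in Col-0 against 6 in med16-2 and 578 against 49, 61.7-fold (30.3 to 183) and 17.1-fold (12.9 to 23.57) lower. The lignin genes CAD4 and CAD5, for cinnamyl alcohol dehydrogenases, were each 2.01-fold lower, near the 2-fold limit, and CCOAOMT1, for a methyltransferase of lignin monomers, was at a log2 ratio of -0.78 (-0.81 to -0.75) and not called. At low phosphate 4 of the 17 were lower, with a median of -0.67.

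Root hair genes lay below equality throughout the list, many by close to 2-fold, beside 6.34% of all loci called lower. All 26 listed were compared, 12 were called lower and 0 higher, and 26 of 26 had log2 ratios below 0, with a median of -0.94 and a narrow range of -1.32 to -0.03. Their summed level was 4617 CPM in Col-0 and 2486 CPM in med16-2. RHS12 (root hair specific 12), a pectin methylesterase gene, had 147 CPM in Col-0 against 59.2 in med16-2, 2.49-fold (2.29 to 2.71) lower, MRH6 had 61.4 CPM in Col-0 against 25.8 in med16-2, 2.38-fold (2.09 to 2.72) lower, and RHS18, a peroxidase gene, had 234 CPM in Col-0 against 99.4 in med16-2, 2.35-fold (2.199 to 2.51) lower. PRP3, for a proline-rich wall protein of hairs, had 450.1 CPM in Col-0 against 219.7 in med16-2, 2.05-fold (1.96 to 2.15) lower, and COW1, for a phosphatidylinositol transfer protein of tip growth, was 2.06-fold (1.92 to 2.22) lower. Of the regulators, RSL4, the bHLH factor of hair outgrowth, was 2.03-fold (1.82 to 2.27) lower, and RHD6, which acts before it, was at -0.21 and not called.

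At low phosphate 0 of the same 26 genes were called in either direction, the median was -0.12 and the summed levels were 3586 CPM in Col-0 and 3389 CPM in med16-2. RHS12 had 112 and 83.2 CPM and PRP3 359 and 338 CPM there. The difference between the high and low phosphate ratios was not tested. The genes that set which epidermal cells form hairs were not called at high phosphate, 0 of 10, with a median of 0.22. Over all loci compared, 6.34% were lower and 0.712% higher there. WER and GL2, factors of the non-hair fate, were at 0.59 (0.40 to 0.78) and 0.48 (0.26 to 0.70), TTG1 at 0.00 (-0.20 to 0.21) and MYB23 at 0.84 (0.34 to 1.39).

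Wall-loosening families held lower members. Among xyloglucan endotransglucosylase/hydrolases (XTH), which cut and rejoin wall xyloglucan, 7 of 26 compared of 33 were called lower and 0 higher (median -0.50), beside 6.34% lower over all loci. XTH31 had 1215 counts in Col-0 against 50 in med16-2, 35.2-fold (26.8 to 48.1) lower, and 1996 and 215 counts at low phosphate. XTH12, XTH13, XTH14 and XTH26 were 2.87-fold, 2.39-fold, 2.16-fold and 3.36-fold lower at high phosphate and not called at low phosphate. Among expansins, proteins that loosen cell walls, 5 of 22 compared of 37 were lower and the median was -0.06. EXLB1, an expansin-like gene, had 93 counts in Col-0 against 7 in med16-2, 18.22-fold (9.06 to 49.6) lower, while EXPA9 was at 0.09 (0.02 to 0.16). EXT3, for an extensin of the wall, had 1798 CPM in Col-0 against 867 in med16-2, 2.07-fold (2.03 to 2.12) lower, and the peroxidase genes AT4G26010 and AT2G37130 were 3.39-fold (3.24 to 3.55) and 2.78-fold (2.67 to 2.90) lower.

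Few markers of the dividing and patterned tip were called, beside 6.34% lower and 0.712% higher over all loci. Of 40 cell cycle genes compared 1 was called, KRP1, for an inhibitor of cyclin-dependent kinases, which had 65 counts in Col-0 against 47 in med16-2 and was 2.02-fold (1.37 to 3.01) lower, and the median was 0.22. MCM5, of the replication helicase, and CYCA3;1, an S-phase cyclin gene, were at 0.74 (0.54 to 0.94) and 0.71 (0.31 to 1.15), and CDKA;1 at 0.15 (0.00 to 0.30). None of 21 core histone genes was called (median 0.11, range -0.27 to 0.60), with the limit that near-identical histone copies can share reads. Of 15 stem cell niche genes 1 was called, UPB1, a bHLH gene that acts on peroxidase genes at the border of the meristem, with 93.1 CPM in Col-0 against 36.0 in med16-2, 2.59-fold (2.32 to 2.89) lower; the median was 0.28, and PLT3 and AGL42 were at 0.53 (0.36 to 0.70) and 0.80 (0.41 to 1.22). WOX5, of the quiescent centre, had 5 counts in each high phosphate library, too few to tell a difference.

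Lists of differentiating tissues lay mostly below 0. Their calls are to be read beside 6.34% lower and 0.712% higher over all loci. In the root cap list 0 of 9 were called and the median was -0.48, with CEL3 and CEL5, cellulase genes, at -0.96 (-1.20 to -0.72) and -0.48 (-0.59 to -0.37), and BRN1, a cap maturation factor, at -0.55 (-0.73 to -0.36). In the xylem list 0 of 12 were called, yet all 12 were below 0 with a median of -0.51; CESA4 and CESA8, of secondary wall cellulose synthase, were at -0.67 (-0.84 to -0.51) and -0.72 (-0.93 to -0.50). Of 9 Casparian strip genes, CASP5 was called lower, 2.34-fold (1.91 to 2.88), and CASP1 was at -0.38 (-0.46 to -0.29), with a median of -0.32. Of 12 suberin genes compared, KCS2, LTPG15 and CYP86B1 were called lower and the median was -0.84; at low phosphate 9 were called lower and the median was -2.31, a difference that was not tested. KCS2, for a fatty acid elongase, had 100 counts in Col-0 against 39 in med16-2, 3.72-fold (2.56 to 5.57) lower. The phloem list had 0 of 11 called, with a median of 0.12 that became -0.0028 among loci with a mean of 5 CPM or more, and SUC2, the sucrose carrier gene, was at 0.83 (0.55 to 1.13). Of 5 lateral root initiation genes LBD18 was called lower with 21 counts in Col-0 against 15 in med16-2. Its ratio of 2.03-fold (1.005 to 4.27) lay close to both limits of a call.

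Some of the systemic phosphate starvation genes were lower although phosphate was ample. Of 33 compared of 40 listed, 10 were called lower and 0 higher (median -0.42), beside 6.34% lower over all loci. AT4, a non-coding RNA that sequesters miR399 and whose promoter above holds a PHR1 binding site, had 185 counts in Col-0 against 19 in med16-2, 13.9-fold (8.86 to 24.2) lower. NPC4, also called lower, held this site as well. SPX1, PHO1, PAP10, PAP17, PECP1, RNS1, G3PP1 and G3PP2 were called lower without the site in their windows. Other members held it and were not called, among them SPX3, PAP24, PS2, MGD2, PLDZ2, GDPD1 and GDPD5. PECP1, for a phosphatase of phospholipid breakdown, had 19 counts in Col-0 against 6 in med16-2, and RNS1, for a secreted ribonuclease, had 97 counts in Col-0 against 34 in med16-2, 4.13-fold (2.79 to 6.36) lower. PHO1, for the phosphate exporter of the stele, was 2.04-fold (1.85 to 2.24) lower, whereas PHO2, for the ubiquitin conjugase that limits phosphate uptake, and SQD2, for sulfolipid synthesis, were at 0.09 (-0.03 to 0.21) and -0.15 (-0.25 to -0.04). Of 16 genes of the local phosphate and STOP1 pathway 4 were lower and the median was -0.15: LPR1, for the ferroxidase of the tip, had 120 counts in Col-0 against 52 in med16-2, 3.35-fold (2.42 to 4.76) lower, ALMT1, for the malate channel, had 421 counts in Col-0 against 257 in med16-2, 2.39-fold (2.04 to 2.81) lower, and MATE and PGIP2 had 22 counts in Col-0 against 14 in med16-2 and 24 against 17. In the low phosphate pair 14 of the 33 systemic genes were called lower, with a median of -0.81. PHO2 was called lower there at a log2 ratio of -1.19 (-1.36 to -1.03). Of the 16 local genes 2 were lower in that pair, with a median of -0.25. The differences between the pairs were not tested.

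Most iron storage genes were lower, while few iron uptake genes were called, beside 6.34% lower and 0.712% higher over all loci. Of 7 iron storage genes compared of 11 listed, 5 were called lower and all 7 lay below 0, with a median of -1.08; at low phosphate 1 was called and the median was -0.08, a difference that was not tested. The ferritin genes FER1, FER2 and FER4, for iron-storing shells of the plastid and mitochondrion, had 757 counts in Col-0 against 526 in med16-2, 150 against 88 and 198 against 114, 2.103-fold, 2.48-fold and 2.53-fold lower, and FER3 was at -0.25 (-0.38 to -0.12). VTL1 and VTL2, of the vacuolar iron transporter-like family, had 48 counts in Col-0 against 33 in med16-2 and 18 against 5. Of 25 iron uptake and deficiency genes compared of 37, 0 were lower and 1 higher, OPT3, for a phloem transporter of iron, with 77 counts in Col-0 against 231 in med16-2, 2.04-fold (1.58 to 2.69) higher, and the median was 0.04. The low phosphate counts of OPT3 were 88 in Col-0 and 36 in med16-2, a log2 ratio of -0.90 (-1.51 to -0.33), not called. IRT2, for an iron transporter, and ZIF1, for a vacuolar transporter of nicotianamine, were at -0.99 (-1.15 to -0.83) and 0.79 (0.59 to 0.99) at high phosphate.

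Copper, nitrogen and sulfur genes gave a few large ratios, with counts to be read beside 6.34% lower and 0.712% higher over all loci. FRO4, for a root copper reductase, had 65 counts in Col-0 while med16-2 had 0 at high phosphate, lower by at least 31.7-fold, and 4 and 0 at low phosphate. FSD1, for the iron superoxide dismutase, had 1323 counts in Col-0 against 267 in med16-2, 7.23-fold (6.34 to 8.29) lower, while CSD1, for a copper/zinc superoxide dismutase, was at 0.12 (0.06 to 0.18); 3 of 10 genes of that list were lower and 0 higher. Of 14 nitrate and ammonium genes 2 were lower and 1 higher, and the median of -0.01 became 0.03 with library totals as the scale. NRT2.1, a high-affinity nitrate transporter gene, had 18 counts in Col-0 against 4 in med16-2, NRT1.5, for loading of nitrate into xylem, had 582 counts in Col-0 against 359 in med16-2, and AMT1;1, an ammonium transporter gene, had 8 counts in Col-0 against 40 in med16-2, 3.26-fold (1.58 to 8.46) higher. Of 13 sulfur genes 6 were lower and 0 higher (median -0.72). GGCT2;1, for glutathione breakdown, had 82 counts in Col-0 against 8 in med16-2, 14.2-fold (7.25 to 35.9) lower, SDI1, a sulfur deficiency repressor of glucosinolate synthesis, had 158 counts in Col-0 against 24 in med16-2, 9.45-fold (6.24 to 15.5) lower, and LSU2, of the low-sulfur response family, had 24 counts in Col-0 against 5 in med16-2. SULTR1;2, for the main root sulfate transporter, was at -0.02 (-0.13 to 0.09).

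Several transporter and conjugation families held genes with large ratios. Of 19 aquaporin genes compared of 20, 5 were lower and 0 higher (median -0.62, 16 of 19 below 0), beside 6.34% of all loci lower. TIP2;2 and TIP2;3, for water channels of the vacuole, had 531 CPM in Col-0 against 94.8 in med16-2 and 48.3 against 8.06, 5.60-fold (5.28 to 5.95) and 5.98-fold (4.89 to 7.41) lower. PIP2;1, of the plasma membrane, had 1140.1 CPM in Col-0 against 415 in med16-2, 2.75-fold (2.66 to 2.83) lower, TIP1;2 was 2.27-fold (2.22 to 2.32) lower, and TIP1;1 was at -0.74 (-0.77 to -0.70) and not called. The TIP2;2 levels at low phosphate were 349.8 and 54.8 CPM.

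Among UMAMIT genes, a family of amino acid exporters, 9 of 32 compared of 44 were lower and 0 higher (median -0.60, 25 of 32 below 0). Over all loci compared, 6.34% were lower and 0.712% higher. UMAMIT17 had 250 counts in Col-0 against 28 in med16-2, 12.8-fold (8.81 to 20.04) lower, UMAMIT20 had 184 counts in Col-0 against 28 in med16-2, 9.46-fold (6.43 to 14.8) lower, and UMAMIT31 and UMAMIT28 were 6.25-fold (3.40 to 13.3) and 4.11-fold (2.94 to 5.90) lower, while UMAMIT18 and UMAMIT5 were at -0.18 (-0.29 to -0.06) and 0.23 (0.12 to 0.34). UMAMIT17, UMAMIT20, UMAMIT31 and UMAMIT28 were also called lower at low phosphate, where UMAMIT20 had 285 and 4 counts. Among glutathione transferases of the phi and tau classes, which join glutathione to other compounds, 6 of 37 compared of 42 were lower and 1 higher. GSTF12, needed for flavonoid transport to the vacuole, had 32 counts in Col-0 against 2 in med16-2, and the tau class gene GSTU17 had 222 counts in Col-0 against 21 in med16-2, 15.1-fold (9.86 to 25.5) lower. GSTF8 and GSTU19 were at -0.01 (-0.04 to 0.03) and 0.06 (0.03 to 0.10), with 1142 CPM in Col-0 against 1136 in med16-2 for GSTF8.

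Hormone and defence lists held some lower genes at high phosphate, to be read beside 6.34% lower and 0.712% higher over all loci. Of 23 jasmonate genes 3 were lower and 0 higher (median -0.17), against 12 lower and a median of -1.01 at low phosphate; the difference was not tested. JAZ6 and JAZ8, for repressors of the pathway, had 231 counts in Col-0 against 102 in med16-2 and 58 against 30, LOX4, for a lipoxygenase of jasmonate synthesis, was 2.44-fold (2.00 to 2.99) lower, and the regulator gene MYC2 was at -0.17 (-0.25 to -0.09). HEL, for a hevein-like antifungal protein, had 601 counts in Col-0 against 282 in med16-2, 3.11-fold (2.70 to 3.601) lower, while ERF1 and CHI-B, of the ethylene and jasmonate branch, were not called, and PDF1.2 was not compared. In the salicylate list 2 of 14 were lower and 1 higher: WRKY18 and WRKY53 were 2.97-fold (2.499 to 3.55) and 2.12-fold (1.601 to 2.83) lower, WRKY54 had 19 counts in Col-0 against 59 in med16-2, and PR1, PR2 and PR5 had 0 counts in both libraries. Of the whole WRKY family of defence and stress factors 8 of 54 compared of 72 were lower and 2 higher (median -0.12); WRKY30, WRKY57 and WRKY45 were 3.31-fold, 3.25-fold and 2.99-fold lower.

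Of 17 auxin response genes 1 was lower, a share near the 6.34% of all loci, and 2 were higher, beside 0.712% of all loci. The lower gene was IAA3, for a repressor of auxin signalling, at 2.46-fold (1.99 to 3.05). GH3.3, for an enzyme that conjugates auxin to amino acids, had 3 counts in Col-0 against 36 in med16-2, 7.14-fold (2.59 to 41.7) higher, and IAA5, another repressor gene, had 13 counts in Col-0 against 40 in med16-2. At low phosphate GH3.3 had 53 and 22 counts and was not called. NIT2, for a nitrilase, had 335 counts in Col-0 against 1274 in med16-2, 2.60-fold (2.31 to 2.94) higher. Its low phosphate counts were 1434 in Col-0 and 742 in med16-2, a log2 ratio of -0.57 (-0.70 to -0.44), not called. NIT1, its neighbour in the family, was at -0.95 (-1.04 to -0.86) at high phosphate. In the same list of auxin transport and synthesis genes PIN2, for an efflux carrier, was at 0.52 (0.45 to 0.58). None of 5 heat shock genes was called, with a median of 0.24 that became -0.18 among loci with a mean of 5 CPM or more, and none of 3 touch genes (median -0.20). Of 14 clock genes 4 were lower, RVE8, ELF4, CCA1 and PRR9, at 2.84-fold, 2.74-fold, 2.58-fold and 2.38-fold, with a median of -0.41, and the clock output gene GRP7 was at 0.01 (-0.02 to 0.04). The labels do not give the hour of sampling. Of 12 reference genes 0 were called, with a median of -0.01 that became 0.04 with library totals as the scale, and a range of -0.33 to 0.27.

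Among genes called lower with a mean of at least 5 CPM over the 2 high phosphate libraries, the 12 largest ratios included glucosyltransferase genes that are in no list. AT2G22590 and AT5G17040, both annotated as UDP-glycosyltransferases, had 137 counts in Col-0 against 3 in med16-2 and 144 against 10, 57.4-fold (22.4 to 328) and 20.11-fold (11.1 to 44.8) lower. KAT5, for a thiolase of peroxisomal fatty acid breakdown, had 1166 counts in Col-0 against 69 in med16-2, 24.5-fold (19.4 to 32.0) lower, and 580 and 58 counts at low phosphate. AT5G57785, of unknown function, had 232 counts in Col-0 against 12 in med16-2, 27.2-fold (15.9 to 55.5) lower, and 221 and 1 counts at low phosphate. Among genes with large differences in CPM, SAHH2, for an enzyme that recycles S-adenosylhomocysteine in the methylation cycle, had 778 CPM in Col-0 against 160.5 in med16-2, 4.85-fold (4.63 to 5.08) lower, and GASA1, a gibberellin-regulated peptide gene, had 773 CPM in Col-0 against 373 in med16-2, 2.07-fold (2.00 to 2.15) lower. The mitochondrial ribosomal RNA locus ATMG00020 had 3186 CPM in Col-0 against 1207 in med16-2, 2.64-fold (2.59 to 2.69) lower, in libraries whose mitochondrial share differed.

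Genes higher in med16-2 were fewer and differed by smaller ratios. AT5G35935, a pseudogene in the annotation, had 21 counts in Col-0 against 611 in med16-2, 19.5-fold (12.9 to 32.4) higher, and 43 and 401 counts at low phosphate. The other 11 of the 12 largest ratios among genes called higher with a mean of at least 5 CPM over the 2 high phosphate libraries lay between 2-fold and 4-fold. AT4G37850, for a bHLH factor, had 72 counts in Col-0 against 325 in med16-2, 3.07-fold (2.39 to 4.04) higher, AT5G51500, annotated in the plant invertase and pectin methylesterase inhibitor superfamily, had 146 counts in Col-0 against 654 in med16-2, 3.06-fold (2.56 to 3.69) higher, and the receptor-like kinase gene RLK (AT5G67280) was 2.59-fold (1.97 to 3.49) higher. AT3G23570, TRM25, WAKL4, CYP705A12 and SGT1A were 2.90-fold, 2.56-fold, 2.30-fold, 2.28-fold and 2.198-fold higher.

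In CPM the largest gain among the genes called higher was that of AT3G15450, a gene of an aluminium-induced protein family, with 363 CPM in Col-0 against 789 in med16-2, 2.17-fold (2.09 to 2.26) higher. MIPS1, for the enzyme that makes inositol phosphate from glucose phosphate, had 122 CPM in Col-0 against 249 in med16-2, 2.05-fold (1.92 to 2.19) higher, and was higher at low phosphate too, with 88.6 and 199 CPM. ATCTH, a CCCH zinc finger gene, had 41.2 CPM in Col-0 against 96.9 in med16-2, and ASN1, for the asparagine synthetase known to respond to sugar shortage and darkness, had 29.0 CPM in Col-0 against 62.0 in med16-2, 2.13-fold (1.87 to 2.45) higher. AT5G07860, AT1G72820 and AT3G26610 were 2.09-fold, 2.03-fold and 2.01-fold higher, and PDX1.1, of vitamin B6 synthesis, was 2.37-fold (1.81 to 3.16) higher. Of these named genes, AT5G35935, AT5G51500, TRM25 and MIPS1 were also called higher at low phosphate, and the others were not. AT3G23570, CYP705A12 and ASN1 lay below equality there, at log2 ratios of -0.82 (-1.11 to -0.54), -0.47 (-0.74 to -0.21) and -0.41 (-0.54 to -0.275). PDX1.1 was at -0.11 (-0.42 to 0.20) there, and the rest lay above equality.

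The low phosphate pair shares no library with the high phosphate pair, so it gives a second look at the genes called. At low phosphate 1147 loci were lower in med16-2 (6.14%) and 195 higher (1.04%), of which 363 (1.94%) and 38 (0.203%) were so at least 4-fold. Of the 1186 loci lower at high phosphate, 588 were lower in both pairs, 49.6% of the high phosphate list and 51.3% of the low phosphate list, beside 6.14% of all loci called lower at low phosphate, and 1097 (92.5%) had a log2 ratio below 0 at low phosphate, against 48.8% of all loci. Among the 278 that were lower at least 4-fold, 230 were lower at low phosphate (82.7%). The median log2 ratio of the 1186 was -1.44 at high phosphate and -1.001 at low phosphate. These loci were selected by their high phosphate ratio, so the medians do not measure whether the difference was smaller at low phosphate. Their median level in CPM was 9.54 in Col-0 and 2.99 in med16-2 at high phosphate, and 9.46 and 4.48 at low phosphate.

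The genes higher in med16-2 were followed in the same way. Of the 133, 27 were higher in both pairs, 20.3% of the high phosphate list and 13.8% of the low phosphate list, beside 1.04% of all loci called higher at low phosphate, and 84 (63.2%) had a log2 ratio above 0 at low phosphate, against 51.2% of all loci. Their median log2 ratio was 1.24 at high phosphate and 0.28 at low phosphate. These loci too were selected by their high phosphate ratio, so the same limit applies to their medians. Most of them had few counts, with a median level of 1.32 CPM in Col-0 and 3.54 CPM in med16-2 at high phosphate.

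**Figure D5:**
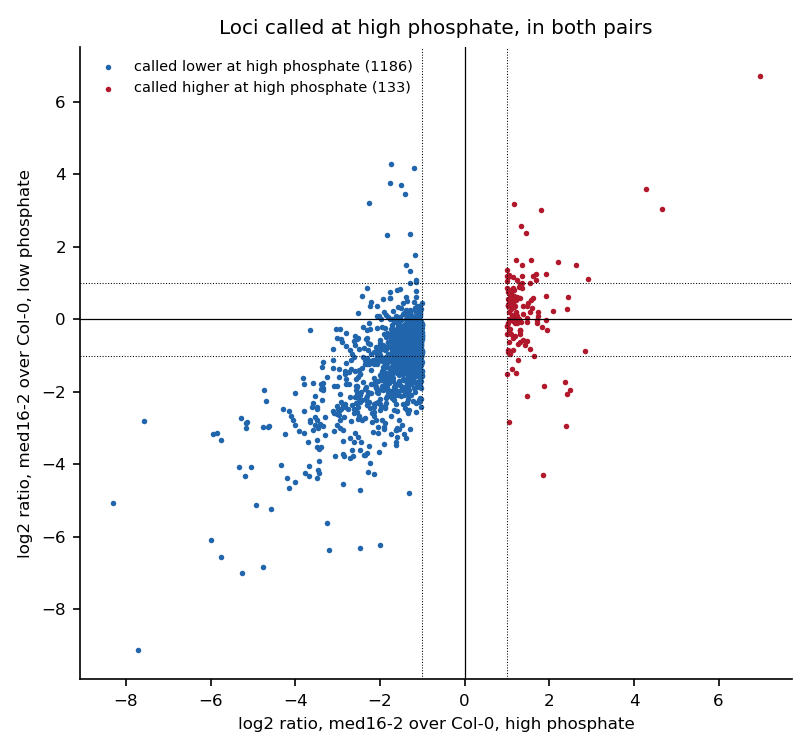
Each point is a locus called at high phosphate, with its log2 ratio of med16-2 over Col-0 at high phosphate on the x axis and at low phosphate on the y axis; dotted lines mark 2-fold. Of the 1186 called lower (blue), 1097 lie below 0 on the y axis, and of the 133 called higher (red), 84 lie above it.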

How the data were processed

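RNA of root tips was sequenced as mRNA libraries that keep no strand, 1 per group. The authors deposited raw read counts per TAIR10 locus. The submitters' processing notes name Trimmomatic 0.35, TopHat2 2.0.9, HTSeq 0.6.0 and the TAIR10 build, and the file layout is that of HTSeq. Lines that name no gene (9.89% to 42.1% of a library) were left out. Promoters, gene names and overlaps came from RefSeq's TAIR10.1.

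Library sizes were scaled by TMM (edgeR 4.0.16, R 4.3.3) over the 4 libraries, and CPM is a count divided by the scaled library size in units of 1000000 counts. Ratios used counts plus 0.5 and exact (Clopper-Pearson) 95% intervals (Python 3.11.15, scipy 1.17.1). A call needed 2-fold and an interval without equality. Against 0 counts, 3 counts gave the bound. The procedure was tested on simulated counts that held counting error only, so that test does not cover variation between samples. With 1 library per group no test was run, in place of a count model with replicates. PCR copies are not independent molecules, so intervals cover counting error only.

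The loci, the 39 gene lists and the rules were chosen with earlier results of these data known. The genes named were MED16 and the 3 loci on either side, the 12 called in each direction with the largest ratio at a mean of at least 5 CPM over the 2 high phosphate libraries, the 12 with the largest difference in CPM, and for each list up to 4 members by ratio and 2 by level. CAD4, CAD5, CBF2, CBF3, CHIL, COR413IM1, COW1, CYP86B1, GOLS3, MYB12, PHO1, RHD6, RSL4, UGT78D2, XERO2, XTH13, XTH14, ZAT10, the list members not compared and the genes of the closing section were named with their values known. Alternatives were total counts, DESeq2 1.42.0 size factors, 3 filters, a pseudocount of 5, other folds, a 99% interval and leaving out ribosomal RNA and organelle loci.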

Additional observations from a re-analysis of the deposited data

Results flagged for a closer look

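Among the genes called in both phosphate pairs, 14 were lower in med16-2 at high phosphate and higher at low phosphate. They are the loci ATMG00160, ATMG00640, ATMG00730, ATMG01080, ATMG01380, ATCG00020 and ATCG00670 of the organelle genomes, the nuclear loci AT2G07671 (an ATP synthase subunit C gene), AT2G07731, AT1G15405, AT4G06477 and AT1G61390, the small nuclear RNA gene U1.5 and the receptor kinase gene RHS6. AT2G07671 had 34 counts in Col-0 against 10 in med16-2 at high phosphate and 21 against 153 at low phosphate, and AT1G15405, a non-coding RNA, had 38 against 16 and then 21 against 223. These loci were called higher in the med16-2 library of the low phosphate pair, in which reads placed at several sites took 36.6% of all counts listed, against 6.65% to 9.27% in the others. The part of that make-up in these values was not tested. RHS6, a root hair specific gene, had 93 against 61 counts at high phosphate and 68 against 107 at low phosphate.

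In the other direction, 13 genes were higher at high phosphate and lower at low phosphate. GSTF7, a glutathione transferase gene, had 32 counts in Col-0 against 98 in med16-2 at high phosphate and 469 against 50 at low phosphate. MSRB8, for a methionine sulfoxide reductase, had 107 against 315 and then 328 against 89. GAD4, for a glutamate decarboxylase, had 7 against 39 and then 190 against 7, and JRG21, a jasmonate-regulated gene, 16 against 75 and then 61 against 23. In Col-0 these 4 genes had a higher CPM at low than at high phosphate, and in med16-2 a lower one. Whether the ratios at the 2 phosphate levels differ was not tested for any of these genes, since each group is 1 library.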

How the results depend on the processing

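Lower calls outnumbered higher calls under every setting tried, with lower calls at 81.6% (1.5-fold) to 95.6% (mean of at least 5 CPM) of all calls against 89.9% as reported. The count of lower genes was 1186 and became 710 with a mean of at least 5 CPM, 278 with 4-fold and 2295 with 1.5-fold. The count of higher genes was 133 and became 33 with 5 CPM, 64 with a pseudocount of 5, 14 with 4-fold and 517 with 1.5-fold. The genes lower in both pairs, 588, became 340 with 5 CPM, 158 with 4-fold and 1248 with 1.5-fold, and those higher in both, 27, became 7, 3 and 118 under these settings, 13 with a pseudocount of 5 and 17 with a 99% interval. The stricter filter tests fewer genes and the other folds move the limit itself. These 4 counts stayed within 1.5 times under total counts, DESeq2 size factors, the other filters and without ribosomal RNA and organelle loci. The log2 ratio of MED16 lay between -3.45 and -3.35. The scalings moved the median of all genes to at most 0.06. Of the ratios of named genes 699 kept within their intervals and 18 moved, of list medians 190 stayed near and 5 moved, and of counts of list members called 157 stayed within 1.5 times, 22 became smaller (11 with 5 CPM, 7 with a pseudocount of 5, 4 with total counts) and 6 larger (with no filter); the list medians that changed sign are given with those lists. No paired analysis was possible because the high phosphate comparison has 1 library in each group. Depth limits the 3407 loci under 5 CPM, where most higher calls lie.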

Other observations

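Some annotated families, a few of whose genes are also in the lists, had more lower members than the 6.34% of all loci compared; they were picked with the values known, from 77 product names with at least 20 loci compared, of which 31 lay above that share. Of 22 polyketide cyclase and lipid transport genes, the family of the major latex proteins, 8 were lower (36.4%) and 0 higher. AT4G23670 had 701 counts in Col-0 against 139 in med16-2 and its neighbour AT4G23680 had 45 against 6. Of 29 GDSL-like lipase genes 8 were lower (27.6%), and AT2G03980 had 165 against 31 counts. Of 49 genes annotated as peroxidase superfamily proteins 11 were lower (22.4%) and 1 higher. AT5G19890 had 214 against 24 counts at high phosphate and 589 against 27 at low phosphate, and AT5G64120 had 1734 against 803. Of 60 UDP-glycosyltransferases 10 were lower (16.7%).

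There were 11 runs of 3 adjacent compared loci called lower and 0 called higher, beside 6.34% and 0.712% of all loci called; how many runs chance gives was not tested. The runs hold genes of different kinds, and 2 are given here. CLE4, CLE7 and CLE5, on chromosome 2, encode signal peptides of the CLAVATA3 family, and had 49 against 20, 32 against 5 and 86 against 6 counts. Their low phosphate counts were 34 against 27, 35 against 15 and 132 against 18, and only CLE5 was called lower there. GRP9, a glycine-rich protein gene, had 71 counts in Col-0 while med16-2 had 0, lower by at least 34.6-fold, and 364 against 0 at low phosphate. AT2G05510, beside it in the same run and also glycine-rich, had 237 against 21 counts.

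Of 9 microRNA precursor loci compared, 3 were lower in both pairs. Over all loci compared, 6.34% were lower at high phosphate and 6.14% at low phosphate. MIR163 had 318 against 75 counts at high phosphate and 204 against 28 at low phosphate, MIR414 had 49 against 16 and then 160 against 19, and MIR824 had 72 against 37 and then 100 against 38. These are reads of longer transcripts at the precursor loci in an mRNA library and do not measure the mature microRNAs.

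Of the loci higher in med16-2, AT3G01345 had 0 counts in both Col-0 libraries and 91 and 40 counts in the med16-2 libraries, at least 20.8-fold higher at high phosphate. The pseudogene AT1G43590 had 2 against 92 counts at high phosphate, a ratio of 25.3 (8.47 to 264), and 14 against 91 at low phosphate.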
